A study of Mus musculus with 2 samples.

Results

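The genes described here are the 10 genes of the NFE2 (nuclear factor erythroid 2), BACH and small MAF transcription factors, found by symbol through their gene identifiers, among 43346 mouse genes in the deposited tables. They are 4 activators of the cap'n'collar (CNC) family (Nfe2, Nfe2l1, Nfe2l2 and Nfe2l3), 2 repressors of the same family (Bach1 and Bach2), 3 small MAF partners (Maff, Mafg and Mafk) and Keap1, the inhibitor of the Nfe2l2 product. Both libraries hold total RNA, kept above 200 nucleotides, from pools of 100 common myeloid progenitors (CMP) of male C57BL/6J mice aged 5 to 6 weeks. These bone marrow cells give rise to granulocytes, monocytes, red cells and megakaryocytes. The libraries form 1 group with separate biosamples and 1 shared donor identifier, and nothing was treated or deleted. The series thus holds no contrast between conditions, and p-values measure only the spread of reads between these libraries, which may be technical.

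CNC factors and BACH proteins are basic leucine zipper (bZIP) factors that bind DNA as dimers with a small MAF protein. NFE2 is known for its part in platelet formation and globin regulation, NRF2 (from Nfe2l2) and NRF1 (from Nfe2l1) for antioxidant and proteasome genes, and BACH1 and BACH2 for haem-sensitive repression of overlapping sites. Small MAF proteins lack an activation domain of their own, so what they do at a site depends on the partner, and KEAP1 brings NRF2 to a ubiquitin ligase.

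Replicate 1 held 28916263 expected (estimated) counts and replicate 2 held 26426710. A gene at 0 counts was limited by 3 counts, which came to 0.104 CPM (counts per 1000000) and 0.114 CPM, a limit that covers counting error only. Of 21461 nuclear protein-coding genes 9627 (44.9%) reached 1 TPM (transcripts per 1000000, corrected for length) in both libraries. The median of the detected ones was 12.3 TPM in each. Among the 6 genes of the CMP sort, Kit and Cd34 were at 95.5 ± 3.67 and 65.0 ± 13.5 TPM (SD, n = 2), while Ly6a and Il7r had 0 counts. Both Fc receptor genes of the sort were lower in replicate 1, Fcgr2b at 2.48 and 9.59 TPM and Fcgr3 at 0.640 and 4.27 TPM. In a pool, fewer cells of a type and less RNA per cell cannot be told apart.

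Promoter sequence was available from RefSeq (GRCm38.p6) for 9 of the 10 genes, and not for Nfe2. It came in 15 windows from 250 bases before to 50 after a start site. Each was searched on both strands for TGACNNNGC, the core of the antioxidant response element that CNC and small MAF dimers bind, GCTGAGTCA, the NF-E2 type of site, and TGAGTCA, the AP-1 type. These motifs overlap, since GCTGAGTCA holds TGAGTCA and, read on the other strand, the core. The core was found in 4 of the 15 windows (26.7%), against 12.4% of all 32851 windows. Neither GCTGAGTCA (0.454% of all windows) nor TGAGTCA (5.20%) was found in a window of these 9 genes, and the Nfe2 promoter was not searched. At such low shares, no match in 15 windows says little about these genes. The core lay in windows of all 3 small MAF genes and of Nfe2l2, and these stretches are printed because they bear the sequence that the factors themselves recognise, with the core or its reverse complement in capitals:
Maff: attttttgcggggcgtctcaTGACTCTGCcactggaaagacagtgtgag
Mafg: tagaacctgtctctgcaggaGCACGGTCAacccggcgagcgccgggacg
Mafk: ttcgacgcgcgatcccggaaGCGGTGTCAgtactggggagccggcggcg
Nfe2l2: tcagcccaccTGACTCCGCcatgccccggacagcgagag
They lie at chr15:79346489-79346537 (plus strand, core starting at -112 with the start site as 0), chr11:120633741-120633789 (minus strand, -222), chr5:139791503-139791551 (plus strand, -13) and chr2:75704875-75704913 (minus strand, -240). A match describes these letters alone, and no binding was measured.

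In both libraries 8 of the 10 genes reached 1 TPM, the level taken here as detected, and their deposited TPM spanned from 2.00 to 149.7. Nfe2 stood first, Nfe2l2 second, and the other 6 lay between 2.00 and 27.46 TPM. Nfe2l3 and Maff had 0 counts in both libraries. The limit of 3 counts for them corresponds to 0.106 and 0.108 TPM for Nfe2l3 and to 0.0823 and 0.0833 TPM for Maff. The counts of the detected genes ran from 180 for Mafk to 2948 for Nfe2.

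**Figure D1:**
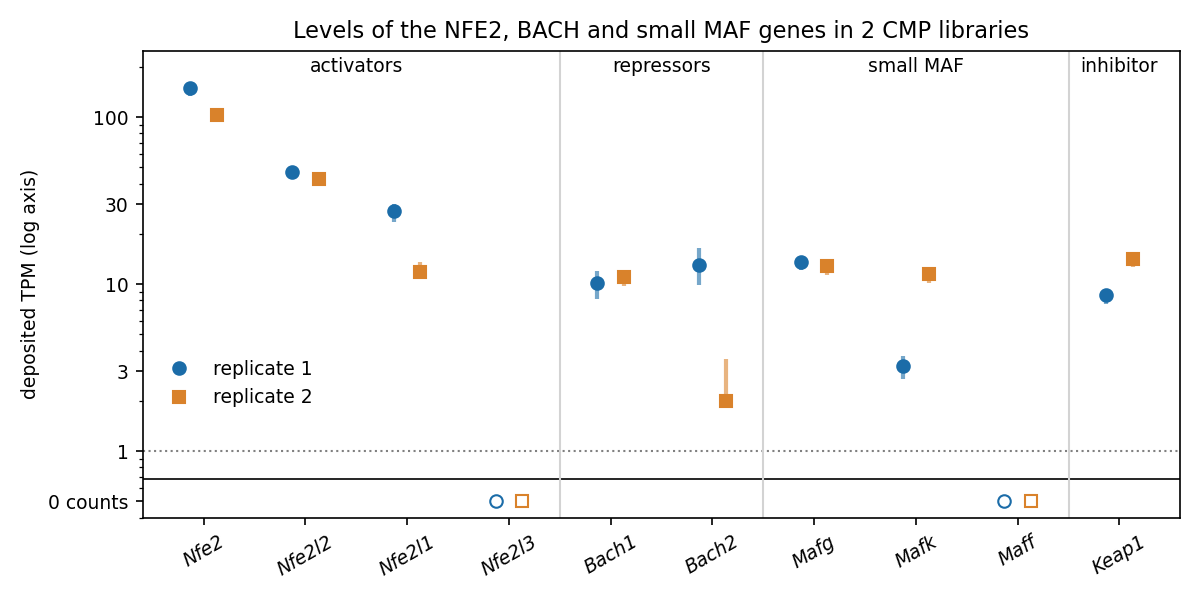
Deposited TPM (log axis) of each gene in replicate 1 (circles) and replicate 2 (squares), by role, with the authors' credibility bounds as vertical lines; the dotted line marks 1 TPM and open symbols mark 0 counts. Nfe2 at 149.7 and 102.7 TPM lies above all others, and the 2 symbols stand far apart for Bach2, Mafk and Nfe2l1.

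Among the activators, Nfe2 (chromosome 15, 103248212 to 103258403, minus strand, GRCm38) encodes the tissue-restricted subunit of NF-E2. It read 149.7 TPM in replicate 1 and 102.7 TPM in replicate 2, or 126.2 ± 33.2 TPM (SD, n = 2). Its 2669 and 2948 counts put replicate 2 slightly higher, the opposite order. By TPM it lay above 97.3% and 95.7% of the detected protein-coding genes. The authors' credibility bounds, 133.6 to 153.4 and 94.56 to 103.1 TPM, did not overlap between the libraries. The same held for 6 of the 8 detected genes, against 61.9% of all detected protein-coding genes. Nfe2 took 66.8% and 65.3% of the summed TPM of the 4 activators.

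Nfe2l2 (chromosome 2, 75675513 to 75704641, minus strand), which encodes NRF2, read 46.8 and 42.71 TPM, from 2090 and 1879 counts. The libraries differed little, at 44.75 ± 2.89 TPM. Nfe2l1 (chromosome 11, 96817414 to 96829968, minus strand) encodes NRF1, a factor made at the endoplasmic reticulum and cut to its active form. It read 27.46 and 11.78 TPM, a 2.33-fold gap, from 863 and 809 counts. Nfe2l3 (chromosome 6, 51432670 to 51458768, plus strand), which encodes NRF3, had 0 counts on all 3 of its transcripts. In the library with the lower bound Nfe2 stood at least 954-fold, Nfe2l2 at least 397-fold and Nfe2l1 at least 109-fold above the limit of 3 counts for Nfe2l3.

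The repressors were both detected, on lower levels than the leading activators. Bach1 (chromosome 16, 87698945 to 87733346, plus strand), the broadly expressed repressor of haem oxygenase and ferritin genes, read 10.19 and 11.11 TPM from 969 and 964 counts. Its libraries barely differed. Bach2 (chromosome 4, 32238804 to 32586108, plus strand), known for its part in B cell and lymphoid-myeloid fate, read 13.03 and 2.00 TPM from 253 and 284 counts. Its bounds were 9.93 to 16.5 and 1.89 to 3.54 TPM. The TPM of Bach2 was thus 6.51-fold higher in replicate 1 while the counts were slightly lower there. Of 8 B cell markers only Cd79b was detected in both libraries, the summed level of the list was 12.81 and 12.43 TPM, and Pax5, Ebf1, Cd79a and Ms4a1 had 0 counts. Cd79b was higher in replicate 2, at 7.60 and 12.18 TPM, and Vpreb1 higher in replicate 1, at 5.21 and 0.0900 TPM from 66 counts and 1. Their part in the TPM of Bach2 was not tested.

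Among the small MAF partners, Mafg (chromosome 11, 120625117 to 120633600, minus strand) read 13.53 and 12.9 TPM from 985 and 1025 counts, with little spread. Mafk (chromosome 5, 139791513 to 139802653, plus strand), first known as the small subunit of NF-E2, read 3.24 and 11.5 TPM from 180 and 640 counts. It was low in replicate 1 on both scales. Maff (chromosome 15, 79346621 to 79359076, plus strand), the stress-inducible member, had 0 counts on both of its transcripts. Mafg stood at least 155-fold and Mafk at least 39.4-fold above the limit for Maff in the library with the lower bound. Mafg therefore held 80.7% of the small MAF TPM in replicate 1 and 52.9% in replicate 2, and Mafk the rest. The end of Mafg overlaps Sirt7 on the same strand, which had 682 and 1197 counts, so reads from the overlap may have been divided between them.

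Keap1 (chromosome 9, 21229730 to 21239361, minus strand) read 8.55 and 14.05 TPM from 545 and 861 counts, higher in replicate 2 on both scales. The gene overlapping its end on the other strand, Gm16754, had 0 counts, as had Tmem184a at the end of Mafk. Whether counting used strand is not given in the sources used here.

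Differences in level between the genes were set against the spread between the libraries by a limma fit of log2(TPM + 1) over 13614 genes, with a 95% interval for each difference and no p. By mean log2(TPM + 1) the order was Nfe2 (6.97), Nfe2l2 (5.51), Nfe2l1 (4.25), Mafg (3.83), Keap1 (3.58), Bach1 (3.54), Mafk (2.86) and Bach2 (2.70). Of the 28 pairs 15 differed beyond the spread, and 13 of these had Nfe2 or Nfe2l2 as the higher gene. Nfe2 exceeded Nfe2l2 by 1.45 ± 0.26 (SE, log2), with an interval of 0.84 to 2.06. Nfe2l2 exceeded Nfe2l1 by 1.26 ± 0.37, with an interval of 0.39 to 2.13, which includes 0 in a fit without the variance trend. The other 5 neighbours in the order did not differ beyond their spread. For the pair Mafk and Bach2 the difference of 0.17 had an interval of -1.55 to 1.89, Bach2 being higher in replicate 1 and Mafk in replicate 2. In 8 of the 28 pairs the libraries gave opposite orders, so below the leading pair most of the order is not resolved.

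Both remaining pairs beyond the spread set Nfe2l1 above a low gene. Nfe2l1 exceeded Bach2 by 1.56 (0.03 to 3.08) and Mafk by 1.39 (0.06 to 2.72). The second of these differed by 2.75 in replicate 1 and 0.03 in replicate 2. With 1 fixed length per gene it fell within the spread, at 0.61 (-0.41 to 1.63). The difference between Nfe2l1 and Bach2 stayed beyond the spread on that scale, at 2.10 (0.92 to 3.28).

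Summed by role, the activators were highest in both libraries. They came to 223.9 and 157.2 TPM, the repressors to 23.22 and 13.11, the small MAF partners to 16.77 and 24.40, and Keap1 to 8.55 and 14.05. Repressors over activators gave a log2 ratio of -3.27 and -3.58, a mean of -3.43 ± 0.22 (SD, n = 2), or 10.8-fold less repressor RNA per length. By counts, with no length correction, it was 4.56-fold less. Small MAF over activators gave -3.74 and -2.69, a mean of -3.21 ± 0.74, or 9.27-fold less, and 4.04-fold less by counts. Both orders were the same in each library.

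Small MAF over repressors gave -0.47 in replicate 1 and 0.90 in replicate 2, so on deposited TPM these groups could not be ordered. At 1 fixed length per gene, a scale described with the effective lengths, it gave 0.42 and 1.08, small MAF being higher in both libraries. The sum of the small MAF RNA was 14.7-fold below that of all CNC and BACH genes in replicate 1 and 6.98-fold below in replicate 2. Keap1 over Nfe2l2 gave -2.45 and -1.60, a mean of -2.03 ± 0.60, with Nfe2l2 higher in both libraries. These are ratios of RNA, and protein was not measured.

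The difference of TPM between the libraries for Nfe2, Nfe2l1 and Bach2 went with a difference in the effective length by which TPM divides the counts. For Bach2 the deposited effective length was 945 bases in replicate 1 and 6942 in replicate 2, a 7.34-fold gap. For Nfe2l1 it was 1530 and 3350 bases (2.19-fold), and for Nfe2 868 and 1401 bases (1.61-fold). In the other 5 detected genes it differed by at most 1.09-fold. Over 9349 protein-coding genes with 1 TPM and 50 counts in both libraries, 11.4% differed by more than 1.5-fold in effective length and 4.17% by more than 2-fold, against 3 of these 8 genes by more than 1.5-fold.

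Dividing the same counts by 1 fixed length per gene, that of its longest transcript in the tables, brought these genes close together. Nfe2 then read 91.3 and 105.8, Nfe2l1 11.91 and 11.72, and Bach2 1.83 and 2.155. On that scale Bach2 was the lowest of the 8 genes in both libraries, and Bach1 exceeded it by 1.99 (0.79 to 3.18, log2). On the deposited scale that pair differed by 0.84 (-0.66 to 2.34). Nfe2 and Nfe2l2 remained first and second on the fixed scale, and 18 of the 28 pairs lay beyond the spread, 14 of them shared with the 15. This scale was chosen after the values were seen.

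**Figure D2:**
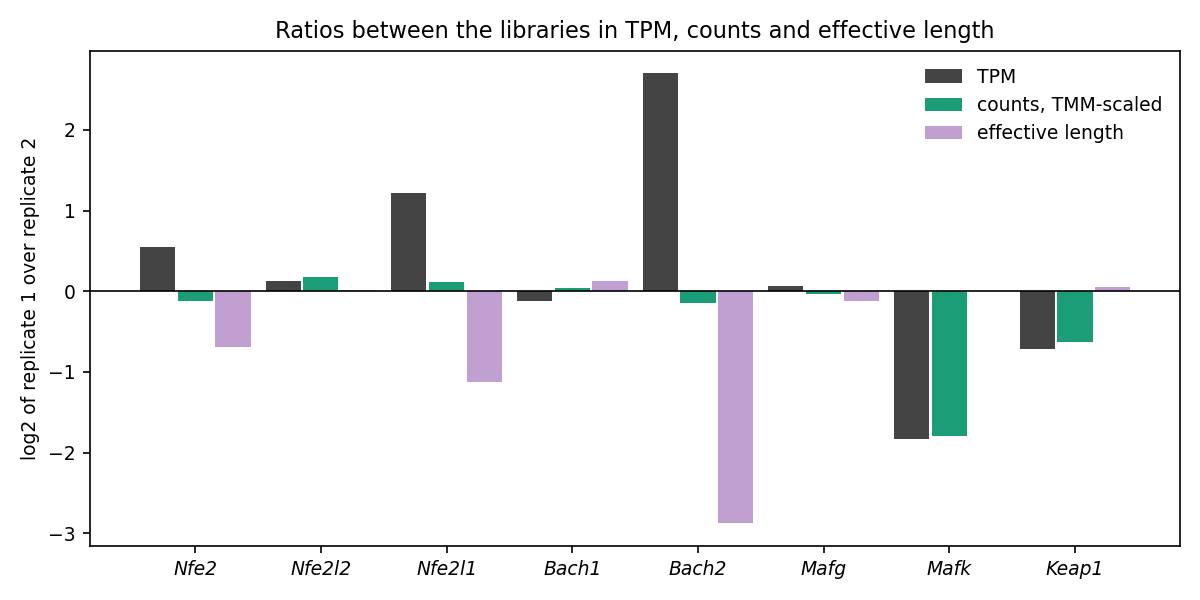
The log2 ratio of replicate 1 over replicate 2 in deposited TPM, TMM-scaled counts and deposited effective length for the 8 detected genes. For Bach2, Nfe2l1 and Nfe2 the TPM bars mirror the length bars while the count bars lie near 0; for Mafk and Keap1 the TPM and count bars fall together.

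A two-sided exact binomial test set the counts of the libraries against each other after TMM scaling, which makes the bulk of genes equal. Of 13616 genes tested, 78.2% were called at an adjusted p of 0.05, so a call is the usual outcome here. The test takes in counting error alone. Of the 8 detected genes 4 were called. Mafk was lower in replicate 1, with a log2 ratio of -1.80 (adjusted p = 1.32e-57, exact binomial test), as was Keap1 with -0.63 (adjusted p = 2.83e-15, exact binomial test). Ratios at least as large as that of Mafk were found in 19.3% of the genes tested, and as large as that of Keap1 in 43.6%. Neither gene's difference stood outside what many genes showed between these libraries.

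Nfe2 (-0.12, adjusted p = 0.00407) and Nfe2l2 (0.18, adjusted p = 0.000132) were also called by the exact binomial test, with small ratios. Under total-count scaling, which moves the median gene from -0.03 to -0.23, Nfe2l2 turned to -0.02 and was not called. Nfe2l1 (0.12, -0.08 under total-count scaling), Bach1 (0.04, -0.17), Bach2 (-0.14, -0.34) and Mafg (-0.03, -0.23) were not called under TMM, and the last 3 were called as lower in replicate 1 under total-count scaling. An edgeR exact test at the common dispersion called 0 of the 13616 genes, 1541 having an unadjusted p under 0.05. Its dispersion was estimated from the difference between these same libraries, so few calls were built into the test. It therefore does not tell these genes from others.

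Most tested markers of megakaryocytes also stood higher in replicate 2, beside Mafk. Of the 10 markers 5 were detected in both libraries, and their summed level was 126.3 TPM in replicate 1 and 241.3 in replicate 2. By the exact binomial test all 7 tested markers were called, against 78.2% of all genes. Of these 6 were higher in replicate 2, among them Itga2b with -1.03 (adjusted p = 9.79e-105, exact binomial test), and 1 in replicate 1. Over all genes 5526 of the 10647 called were higher in replicate 2. Gp6, Ppbp and Tubb1 had 0 counts in both libraries. Erythroid markers summed to 259.4 and 202.0 TPM, with 8 of 11 detected in both and Alas2 at 0 counts. Of 10 tested 9 were called, 6 higher in replicate 1 and 3 in replicate 2. Macrophage markers (4 of 4 called) and mast cell and basophil markers (4 of 5) each had 3 higher in replicate 1 and 1 in replicate 2. Of neutrophil markers 0 of 4 were called, and of B cell markers 2 of 2, 1 in each direction. The part of these markers in the difference of Mafk was not tested, and Nfe2 counts differed by only -0.12 (log2).

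Transcript estimates show which models carried the difference in length. For 7354 genes with 2 or more transcripts and 50 counts in each library, the share of counts on the leading transcript, the one with the highest mean share of TPM, was compared by Fisher's exact test, which called 77.0% of them. Among the 8 detected genes 6 were called. The counts of transcripts are estimates in which shared reads are divided, and that uncertainty is not part of the test. The median change of the leading share over all genes tested was 11.5 percentage points.

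Nfe2-201, the 1697-base coding transcript, held 46.4% of Nfe2 counts in replicate 1 and 65.2% in replicate 2 (adjusted p = 2.68e-45, Fisher's exact test). Nfe2-203, an incomplete coding model of 362 bases with its start at the far end of the gene (103258403), had 327 counts in replicate 1 and 0 in replicate 2. It made up 12.3% of the counts but 48.9% of the TPM of Nfe2 in replicate 1. Whether the short model was present in those cells was not tested. Nfe2-208, a coding transcript of 1878 bases, held 22.7% and 2.77% of the counts. Nfe2-207 held 9.19% and 16.6%, and Nfe2-206, another incomplete model, took 10.7% of the TPM in replicate 2 alone.

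Bach2 counts were spread over transcripts from different start sites. Bach2-205, a non-coding model of 336 bases, had 47 counts in replicate 1 and 0 in replicate 2, which was 18.5% of the counts but 90.9% of the TPM in replicate 1. It led Bach2 by TPM through replicate 1 alone, so its call in the test follows from that choice. With the leading transcript taken by counts, chosen after the values were seen, Bach2-207 was tested and its share also differed (adjusted p = 3.01e-05, Fisher's exact test). Bach2-202, the 8882-base coding transcript, held 27.3% and 49.8% of the counts. Bach2-207, a coding transcript of 8493 bases that starts inside the gene (32417435), held 54.2% and 35.6%, and Bach2-201 0% and 14.6%. Coding transcripts of Bach2 thus had most counts in both libraries.

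Nfe2l1 counts moved between full and short models. The 4654-base Nfe2l1-201 held 0% and 27% of the counts, Nfe2l1-203 20.4% and 0%, and Nfe2l1-202 20.6% and 25.2%. In replicate 1 the short models Nfe2l1-205 (851 bases), Nfe2l1-207 (582 bases) and Nfe2l1-209 (486 bases) had 136, 40 and 23 counts and 34.1%, 16.1% and 12.1% of the TPM, and in replicate 2 each had 0. Nfe2l1-210 held 13.8% and 29.6%. The leading transcript in the test, Nfe2l1-204, held 22.2% and 18.1% (adjusted p = 0.0576, Fisher's exact test) and was not called, whereas Nfe2l1-202, which led by counts, was (adjusted p = 0.035, Fisher's exact test).

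The other genes rested mostly on 1 coding transcript in both libraries. Nfe2l2-201 held 90.9% and 90.3% of the counts (adjusted p = 0.589, Fisher's exact test), with the non-coding Nfe2l2-202 making up the rest. Bach1-201 held 95.2% and 80.5%, while Bach1-203, a retained intron model, had 34 counts in replicate 1 and 188 in replicate 2. The share of Bach1-201 changed by Fisher's exact test (adjusted p = 5.95e-24). Bach1-202, of 545 bases, took 15.2% of the TPM in replicate 1 on 13 counts.

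Mafg-201 held 91.3% and 96.9% of the counts, and the shorter Mafg-204 and Mafg-202 took 31.6% of the TPM in replicate 1 and 21.1% in replicate 2. Mafk-201 held all of its counts in replicate 1 and 88.1% in replicate 2, the rest falling on Mafk-202. Keap1-205 held 76.6% and 100%, with Keap1-202 at 23.4% in replicate 1 alone. These 3 leading shares were called by Fisher's exact test, and differences at least as large as that of Keap1 were met in 30.6% of genes.

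**Figure D3:**
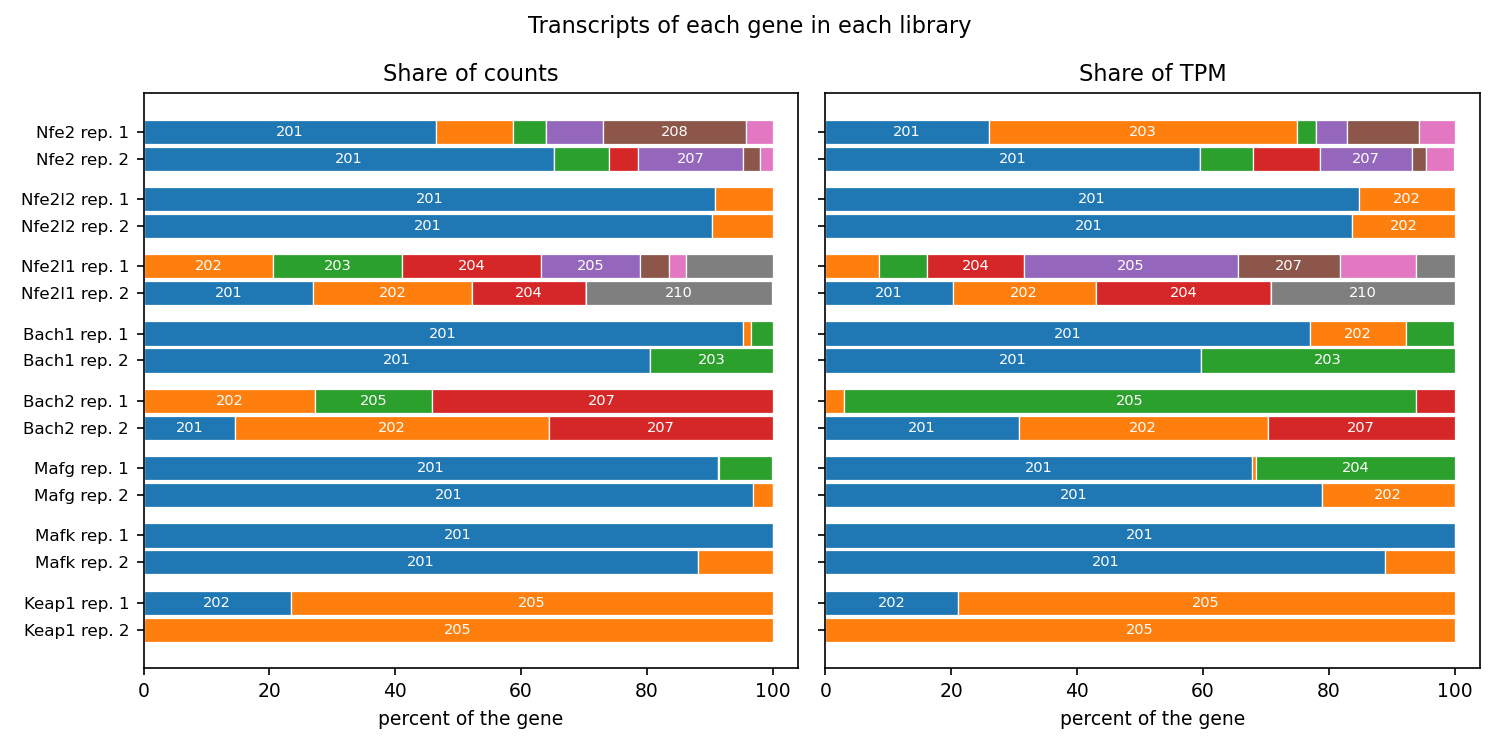
Share of each gene's counts (left) and TPM (right) on its transcripts, for replicate 1 and replicate 2; colours separate the transcripts within a gene, and numbers are the transcript suffixes. Bach2-205 fills 90.9% of the right bar but 18.5% of the left bar in replicate 1.

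Set against the bZIP factors listed with them, Nfe2 was the highest of 53 genes in both libraries. Next came Atf7 at 75.4 ± 10.2 and Atf4, the factor of the integrated stress response, at 59.8 ± 3.15 TPM. Nfe2l2 ranked 4 in both libraries, above Crebzf at 36.1 ± 8.95. Nfe2l1 ranked 8 in replicate 1 and 16 in replicate 2, between Creb1 and Atf6b by mean, and Mafg 13 and 15, between Batf and Fos. Bach1 ranked 18 in both, between Tef and Cebpg, whereas Mafk ranked 28 and 17 and Bach2 15 and 33, on either side of Junb. Of the 9 bZIP members 7 were detected in both libraries, and of 44 other bZIP genes 25. By mean at a fixed length Nfe2 and Nfe2l2 ranked 1 and 3, Mafg 14, Nfe2l1 15, Bach1 16, Mafk 23 and Bach2 33. Atf7 ranked 7 on that scale.

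The large MAF factors, relatives with an activation domain, were not detected in both libraries (0 of 4). Their summed level was 0.250 TPM in replicate 1 and 0 in replicate 2, below Mafg and Mafk in each.

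**Figure D4:**
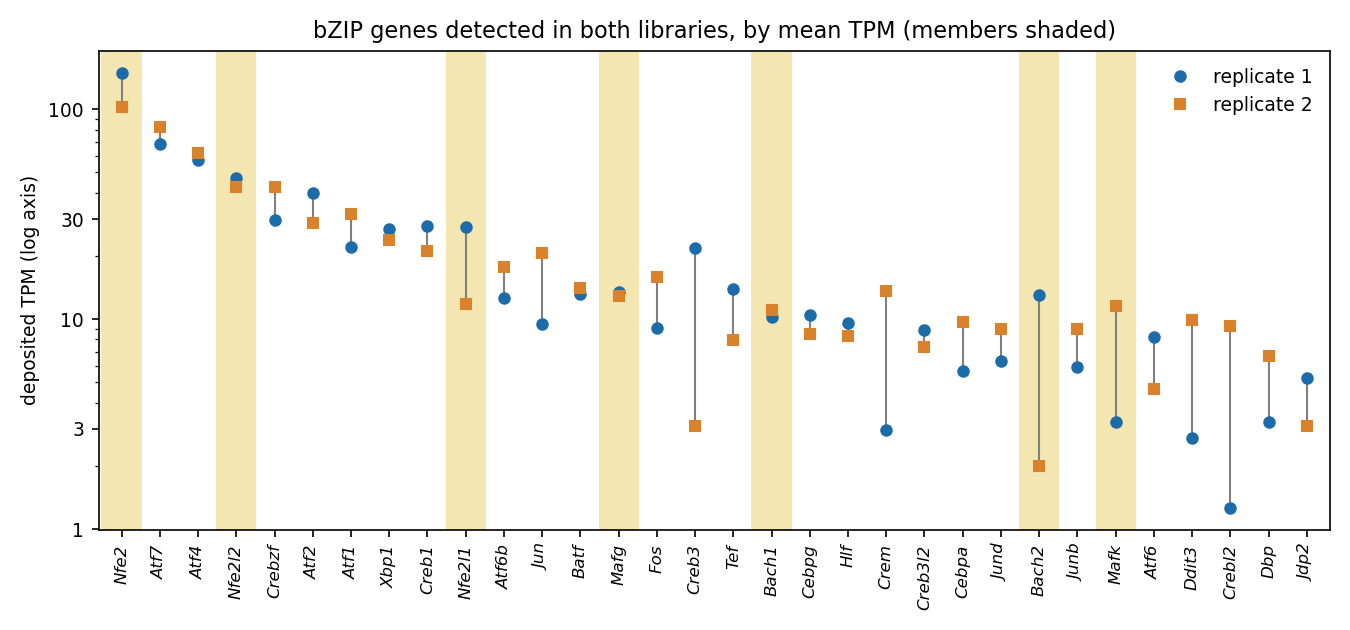
Deposited TPM (log axis) in replicate 1 (circles) and replicate 2 (squares) of the 32 bZIP genes detected in both libraries, in order of mean TPM, with grey lines joining the libraries and the members shaded. Nfe2 is first and Nfe2l2 in rank 4, and Bach2 and Mafk are among the genes with long lines.

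Regulators that act on these factors were present. All 11 genes of NRF2 control were detected in both libraries, with list medians of 17.1 and 22.4 TPM. They were led by the kinase gene Gsk3a (40.3 ± 3.24 TPM), the ligase subunit Rbx1 (34.0 ± 9.77), the autophagy receptor Sqstm1 (33.2 ± 0.410), which binds KEAP1, and Cul3 (25.3 ± 4.39), the ligase scaffold. All 8 genes of NRF1 processing were detected, with Ogt at 155.9 ± 2.76, Vcp at 74.6 ± 27.5, Hcfc1 at 65.7 ± 5.65 and Sel1l at 21.6 ± 13.4 TPM. Of the genes for BACH turnover, export and corepression all 7 were detected, led by the corepressor Ncor1 (102.4 ± 9.71), the exporter Xpo1 (41.0 ± 5.31) and the deacetylase gene Hdac3 (32.6 ± 5.40). In the exact binomial test 8 of 11 genes of NRF2 control were called (3 higher in replicate 1 and 5 in replicate 2), 8 of 8 of NRF1 processing (3 and 5) and 6 of 7 for BACH (4 and 2). These shares lay on both sides of the 78.2% called over all genes.

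Genes known as NRF2 or BACH1 targets through antioxidant response elements were detected in part. In both libraries 26 of 37 were detected, against 44.9% of all nuclear protein-coding genes. The list median was 16.0 and 18.3 TPM. Over all nuclear protein-coding genes, most of them not detected, the median was 0.320 and 0.565 TPM. Over the detected ones it was 12.3 TPM in each library. Haem and iron genes, with 8 of 9 detected, had the highest sum of the 4 target lists (1067 and 1271 TPM), most of it from ferritin, while NADPH supply genes had the highest medians (26.6 and 28.4 TPM). The ferritin genes Fth1 and Ftl1 reached 513.2 ± 17.4 and 424.2 ± 134 TPM, and the biliverdin reductase gene Blvrb 128.0 ± 10.8. Slc48a1, a haem carrier, followed at 35.0 ± 2.64 TPM. Hmox1, the haem oxygenase gene repressed by BACH1, had 0 counts in replicate 1 and 73 in replicate 2 (2.47 TPM). Such a gap was met in 367 of the 11716 genes that reached 50 counts in at least 1 library.

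Glutathione and thioredoxin genes were detected in 8 of 11 cases, led by Prdx6 (160 ± 12.9 TPM), Txn1 (105.6 ± 6.44), Prdx1 (83.9 ± 17.7) and Gclm (56.0 ± 25.8). Slc7a11, the cystine carrier, and Gpx2 had 0 counts. NADPH supply genes were detected in 5 of 6 cases, with Tkt at 102.3 ± 14.9, Taldo1 at 82.5 ± 18.5, Pgd at 29.1 ± 1.46 and G6pdx at 25.9 ± 4.09 TPM, and Me1 had 0 counts. Detoxification genes were least represented, with 5 of 11 detected. Gstp1 reached 175.4 ± 12.4 TPM, Abcc1 40.0 ± 13.2, Gstm1 22.3 ± 4.60 and Cbr1 15.4 ± 0.474, whereas Gsta3, Ephx1, Cbr3 and Aldh3a1 had 0 counts. Nqo1, a common readout of NRF2, was at 7.81 and 4.42 TPM. Of the 29 target genes tested between the libraries 21 (72.4%) were called by the exact binomial test, 13 higher in replicate 1 and 8 in replicate 2, near the 78.2% of all genes.

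The same motifs were searched in the promoter windows of these targets. RefSeq had 35 windows for 27 of the 37 genes. TGACNNNGC was in 9 windows (25.7%, against 12.4% of all 32851 windows). GCTGAGTCA was in 2 (5.71%, against 0.454%) and TGAGTCA in 5 (14.3%, against 5.20%). Both windows with GCTGAGTCA are printed because 1 belongs to a gene read at a high level and 1 to a gene with 0 counts:
Prdx1: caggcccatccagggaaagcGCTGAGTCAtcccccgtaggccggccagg
Me1: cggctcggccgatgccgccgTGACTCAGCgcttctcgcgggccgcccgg
They lie at chr4:116685446-116685494 (plus strand, -133) and chr9:86695892-86695940 (minus strand, -6), and Me1 carries the motif on the other strand. Prdx1 was at 83.9 TPM and Me1 at 0 counts.

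NFE2 is known for driving platelet and globin genes, and of 7 such genes 4 were detected in both libraries. Tbxas1, the thromboxane synthase gene, read 12.83 and 20.70 TPM, and Rab27b, a granule traffic gene, 3.79 and 5.80. Tubb1, the platelet tubulin gene, had 0 counts in both libraries, in which Nfe2 read 149.7 and 102.7 TPM. Casp12 stayed below 1 TPM in both, and the globin gene Hbb-bs read 28.73 and 3.75 TPM, its near-identical copies making that division uncertain. All 33 genes of the proteasome list, known as NRF1 targets, were detected, with medians of 56.5 and 64.1 TPM. They were led by Psma7 (133.0 ± 5.19), Psmb4 (131.4 ± 10.6), Psma2 (129.0 ± 9.92) and Psma3 (113.2 ± 31.6 TPM), and 24 (72.7%) were called by the exact binomial test, 12 in each direction, near the 78.2% of all genes.

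**Figure D5:**
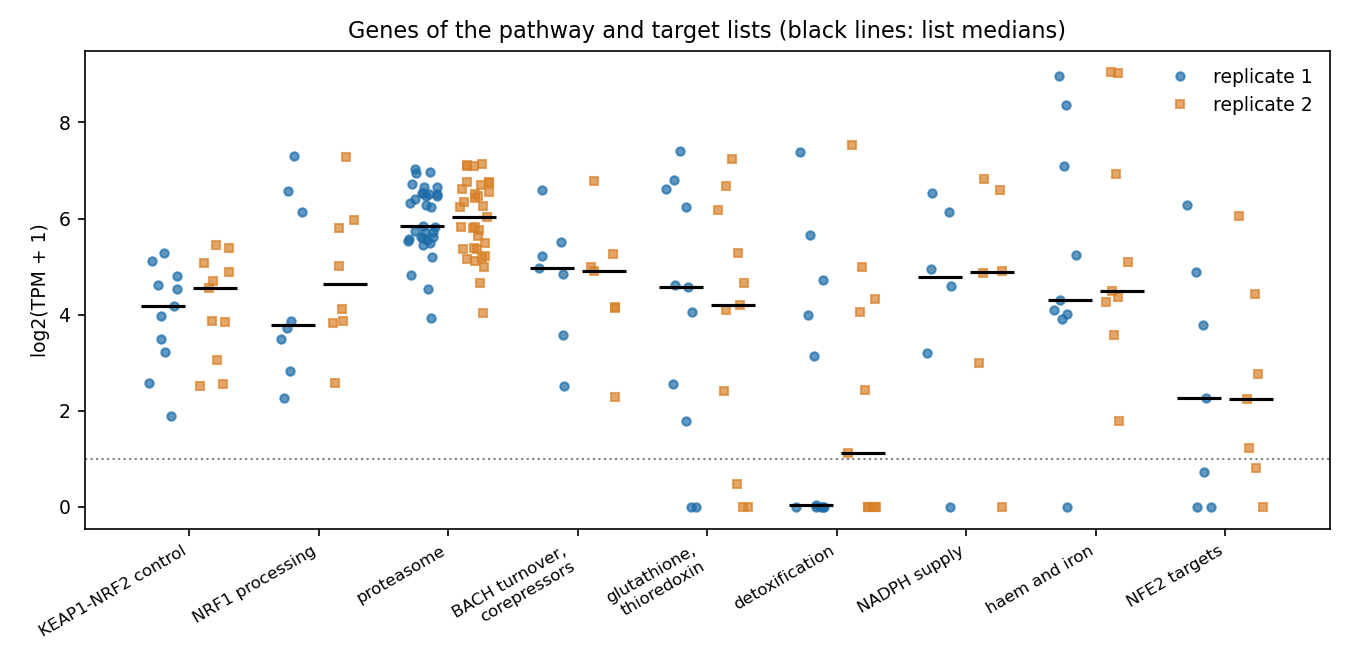
The log2(TPM + 1) of every gene in 9 lists, in replicate 1 (circles) and replicate 2 (squares), with list medians as black lines and the dotted line at 1 TPM. Proteasome genes lie together at medians of 56.5 and 64.1 TPM, whereas the detoxification list holds 5 detected genes and 4 at 0 counts.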

How the data were processed

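RNA of 2 CMP pools was sequenced, and the authors' gene and transcript tables, 1 pair per library, use mouse build mm10 with GENCODE M4, per the deposited notes. The sources used here name no aligner or quantifier. The deposited expected counts are estimates in which shared reads are divided. TPM, as deposited, is scaled to 1000000 over all entries, with tRNA and spike-ins, and the deposited percent values give each transcript's share of its gene's TPM. Effective lengths (bases) and credibility bounds, whose level is not stated, are also the authors'.

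GENCODE M21 (GRCm38) gave symbols and coordinates for 42462 of 43346 genes by unversioned identifier. Levels used limma 3.58.1 (intercept alone, variance trend, log2 of TPM plus 1, at least 10 counts in a library). Libraries were compared by an exact binomial test on rounded counts scaled by TMM (edgeR 4.0.16), because 1 library against 1 leaves no residual degrees of freedom for a quasi-likelihood fit, and transcripts by Fisher's exact test (scipy 1.17.1), each with Benjamini-Hochberg adjustment at 0.05. Ribosomal RNA, tRNA and spike-in entries stayed out of the tests. Alternatives included DESeq2 1.42.0 size factors, other pseudocounts and minimums. The binomial and Fisher tests were checked on simulated counts with counting noise alone, and the intervals on normal noise of the fitted variances. These checks do not cover the spread between these libraries beyond counting error. All 10 genes are named, with the 4 highest genes and up to 4 genes below 1 TPM in both libraries of each list, the bZIP neighbours and transcripts holding 10% or more of a gene. Some of these are not reported here, and Vpreb1, Hmox1, Nqo1, Itga2b, Sirt7, Gm16754 and Tmem184a were named after their values were seen. The genes and lists were chosen with earlier results of these data known.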

Additional observations from a re-analysis of the deposited data

How the results depend on the processing

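The count of 8 detected genes held at 0.5 TPM, with posterior mean TPM, with TPM rescaled over protein-coding genes and with either library alone; it was 6 at 5 TPM. The count of 15 pairs beyond the spread ranged from 12 without a variance trend to 21 without length correction. Without length correction the log2 ratio of repressors over activators was -2.19, of small MAF over activators -2.01 and of small MAF over CNC factors -2.30, and with 1 fixed length per gene repressors over activators was -3.67. Small MAF over repressors lay between -0.47 and 0.90 when a library was left out, and was 0.75 at a fixed length. Nfe2l1 minus Mafg turned to -0.26 without length correction and -0.17 at a fixed length, and Keap1 minus Bach1 to -0.48 without length correction. Under total-count scaling Nfe2l1 turned to -0.08 and Nfe2l2 to -0.02, neither passing, and Bach1 turned to -0.17 and passed, as did Bach2 (-0.34) and Mafg (-0.23). At the common dispersion (0.575) the exact test of edgeR called 0 genes, against 1541 at an unadjusted p of 0.05 and 10647 by the binomial test. That dispersion came from the difference between these same libraries, so few calls were built into the edgeR test. With 1 group there were no conditions to pair. The interval of a difference between 2 genes adds their variances, so it does not pair the genes within a library. Levels without a library have no interval. Depth limits genes at 0 counts to 3 counts, and 2 libraries limit every interval. Of 119 alternative values 98 were labelled the same as the main value, 5 weaker, 4 stronger, 5 moved and 7 reversed. For single genes and pairs, the same meant the same direction and call. For counts it meant a fixed fold range around the main count, and for set ratios a distance below the SD of the libraries. Ratios with a library left out lie within that SD by construction.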
